A study of Homo sapiens with 2 samples.

Results

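The SOCS and PIAS genes encode inhibitors of JAK-STAT signalling, the route by which cytokine receptors activate STAT transcription factors. All 10 genes chosen by symbol (SOCS1 to SOCS7, CISH, PIAS1 and PIAS3) were found among the 43337 genes of the deposited expression table. RNA was sequenced from BT549, a human triple-negative breast cancer cell line, in 1 library of cells overexpressing wild-type SIK1 (genotype label SIK1_WT) and 1 library of cells overexpressing SIK1 S435D (SIK1_S435D). SIK1 is a serine/threonine kinase of the AMPK-related family, and in S435D a serine is exchanged for aspartate, whose negative charge resembles that of a phosphate. The series title names Akt1 as a kinase of SIK1 and STAT3 as the pathway affected, so the question addressed here is whether the inhibitors of that pathway differed between the constructs. The labels do not say whether either line was a clone or a pool, and cells without a construct were not analysed here.

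In textbook accounts, a cytokine receptor activates JAK kinases, which phosphorylate STAT proteins. STAT dimers then enter the nucleus and, among other genes, switch on CISH, SOCS1, SOCS2 and SOCS3, whose products close a negative feedback loop. All SOCS proteins carry an SH2 domain, which binds phosphotyrosine, and a SOCS box, which recruits elongins B and C and the scaffold CUL5 into a ubiquitin ligase. SOCS1 and SOCS3 can also block the JAK kinase directly. PIAS proteins act in the nucleus as SUMO ligases. PIAS3 is best known as an inhibitor of STAT3, and PIAS1 and PIAS3 are both made without a need for cytokine.

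Because STAT binding to DNA is the known route to induction of the feedback genes, the promoters of members were searched for STAT sites. RefSeq promoter windows on GRCh38.p14, from 250 bases before to 50 bases after a start, were matched for 7 of the 10 genes. They are those of CISH, SOCS1, SOCS3, SOCS4, SOCS6, PIAS1 and PIAS3. The letters TTCNNNGAA, which read the same on both strands, occurred 4 times in the CISH window and in no other window searched. The windows of SOCS3 and PIAS3 do not hold the start of the gene as counted here, whereas those of the other 5 genes do. Of all 35116 windows of this length, 7.66% held these letters at least once and 0.0199% held them 4 or more times. The spacing TTCNNNNGAA occurred in none of these windows, against 6.44% of all windows. The interferon-response letters GAAANNGAAA, searched on both strands, occurred once, in the SOCS1 window, against 3.57% of all windows. The windows of these feedback genes are shown 5′ to 3′ on the gene's own strand, with the matches in capitals. They lie at chr3:50611725-50612024 for CISH and chr16:11256155-11256454 for SOCS1, both on the minus strand. A match of letters is a description of the sequence and does not show that a factor binds there.
CISH: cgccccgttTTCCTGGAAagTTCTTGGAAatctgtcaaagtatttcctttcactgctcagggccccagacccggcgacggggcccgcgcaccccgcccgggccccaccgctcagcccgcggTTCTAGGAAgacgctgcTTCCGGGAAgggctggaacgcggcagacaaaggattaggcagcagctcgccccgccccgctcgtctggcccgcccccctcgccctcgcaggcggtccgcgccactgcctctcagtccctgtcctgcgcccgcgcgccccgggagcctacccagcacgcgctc
SOCS1: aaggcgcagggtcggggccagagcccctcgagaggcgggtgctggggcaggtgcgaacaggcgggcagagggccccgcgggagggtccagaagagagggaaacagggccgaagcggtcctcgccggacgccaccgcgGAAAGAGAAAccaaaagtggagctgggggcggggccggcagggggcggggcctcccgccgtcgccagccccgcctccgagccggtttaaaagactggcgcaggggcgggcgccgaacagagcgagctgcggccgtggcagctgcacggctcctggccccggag

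The deposited values were RPKM, that is, reads per kilobase of gene adjusted for the size of each library. They corresponded to 22366506 whole reads for WT and 23520828 for S435D, so a single read on 1 kb of gene equalled 0.0447 and 0.0425 RPKM. With 1 library per construct there was no test and no measure of spread between replicates, and every interval given is a 95% counting interval. SIK1 itself was at 380 RPKM with WT and 422 RPKM with S435D, as both labels require, although RPKM does not tell construct from endogenous transcript and a near-identical gene copy leaves the level uncertain. Of the markers of a mesenchymal breast cancer line, VIM was at 116 and 113 RPKM and all 5 had a mean of at least 1 RPKM. The hormone receptor genes ESR1 and PGR had at most 1 read in either library, and the leukocyte gene PTPRC had 0 reads in both, which allows up to 3 reads in each. The 5 immune markers summed to 5.09 and 5.12 RPKM, of which CD68, which shares 81.7% of its length with another gene of the table, made up 3.41 and 3.59. The epithelial keratins KRT8 and KRT18 were also present, at 45.5 and 37.5 RPKM in the WT library. Of the 8 luminal and epithelial markers, these among them, 5 had a mean of at least 1 RPKM. The receptor gene ERBB2 had 2456 reads with WT and 2439 with S435D, and was at 10.6 RPKM in the WT library. GATA3 and EPCAM were at 2.49 and 2.48 RPKM in that library.

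Levels of the inhibitors were low, and PIAS3 and PIAS1 had the highest means of the 10 genes. PIAS3 was the most abundant member at 6.61 RPKM with WT (95% counting interval 6.13 to 7.11) and 6.73 RPKM with S435D (6.26 to 7.23), which placed it above 58.6% of the 13290 genes that averaged 1 RPKM or more. PIAS1 followed at 2.61 RPKM (2.41 to 2.82) and 2.59 (2.40 to 2.80). Next came SOCS7 at 2.40 (2.18 to 2.62) and 1.89 (1.70 to 2.09) RPKM, and SOCS4 at 2.14 (1.92 to 2.38) and 1.95 (1.74 to 2.17) RPKM. The remaining 6 members had a mean below 1 RPKM, from SOCS3 at 0.919 to SOCS6 at 0.483. The nearest member above that level was SOCS4, with a mean of 2.04 RPKM. Added together, the 8 SOCS and CISH genes reached 8.84 RPKM with WT and 7.60 RPKM with S435D, less than the 9.22 and 9.33 RPKM of PIAS1 and PIAS3 alone.

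**Figure D1:**
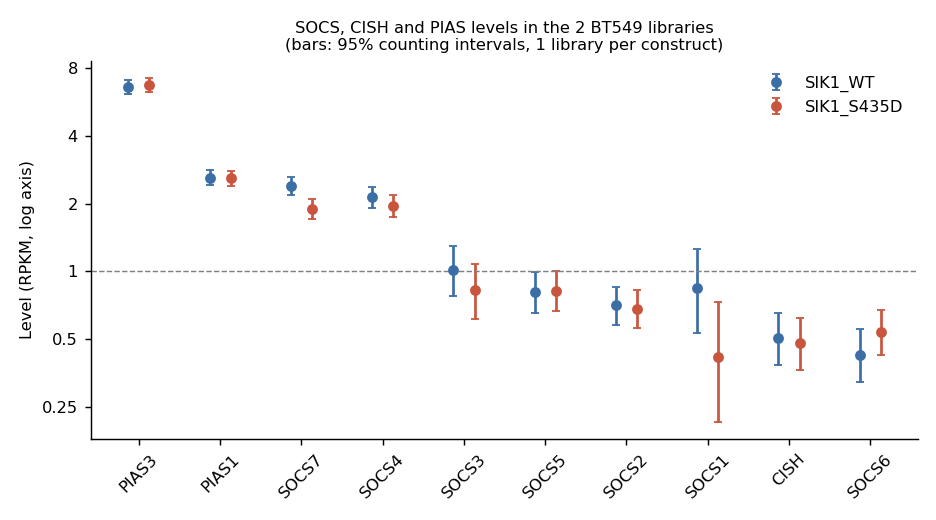
Level of each of the 10 genes in RPKM (log axis) in the WT library (blue) and the S435D library (red), ordered by the mean of both, with 95% counting intervals as bars and the 1 RPKM level dashed. PIAS3 stood at 6.61 and 6.73 RPKM, PIAS1, SOCS7 and SOCS4 between 1.89 and 2.61, and the other 6 genes between 0.416 and 1.01.

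In this order, the counting intervals of neighbours did not overlap between PIAS3 and PIAS1 or between SOCS4 and SOCS3, in either library. From SOCS3 down through SOCS5, SOCS2, SOCS1 and CISH to SOCS6, each gene's interval overlapped that of the next in both libraries, so the order of neighbours among those 6 genes is not resolved at this depth. Genes farther apart in it can still differ. In the WT library the interval of SOCS3 (0.777 to 1.30) lay above those of CISH (0.385 to 0.656) and SOCS6 (0.323 to 0.552). SOCS7 and SOCS4 overlapped in both libraries as well, and SOCS7 and PIAS1 overlapped in the WT library only. The levels also depend on the gene length used in RPKM. The deposited length of CISH, 5112 bases, is 2.36 times that of its longest coding transcript in GENCODE release 29, CISH-202 with 2167 bases. Per length of that transcript CISH was at 1.197 and 1.14 RPKM. SOCS2, whose deposited length is 1.82 times that of its longest coding transcript, came to 1.28 and 1.24 RPKM in the same way. SOCS1, counted over 1225 bases against a transcript of 1784, came to 0.576 and 0.286. By transcript length PIAS3 and PIAS1 kept ranks 1 and 2 in both libraries. SOCS7 and SOCS4 stood at ranks 3 and 4, having exchanged places in the S435D library. SOCS2 and CISH moved to ranks 5 and 6, above SOCS3.

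The STAT-induced feedback genes gave few reads in either library, and each had a ratio of S435D to WT below 1. Positions are those of the deposited table, which match GRCh38. CISH (chromosome 3, 50606490 to 50611831, minus strand), which binds the receptors that activate STAT5, had 58 reads in each library, or 0.507 RPKM in WT and 0.482 in S435D. The ratio of S435D to WT was 0.951 (0.649 to 1.39). CISH, whose promoter window holds the 4 STAT-type matches shown above, thus had the same number of reads with both constructs. CISH shares 218 exon bases with MAPKAPK3 on the other strand, which was at 7.42 and 7.75 RPKM, and how the authors assigned reads of shared bases is not given in the sources used here.

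SOCS1 (chromosome 16, 11254405 to 11256179, minus strand), an inhibitor of JAK kinases in interferon signalling, had 23 reads with WT and 12 reads with S435D. These are 0.839 RPKM (0.532 to 1.26) and 0.416 RPKM (0.215 to 0.728), a ratio of 0.496 with an interval of 0.225 to 1.04 that includes 1. It was the ratio farthest from 1 among the 10 genes and also the one with the fewest reads. Among all 2281 genes with at least 20 and fewer than 50 reads in both libraries together, 9.73% had a ratio at least 1.9-fold below 1. SOCS3 (chromosome 17, 78356778 to 78360077, minus strand), the feedback inhibitor of gp130 receptors and the STAT3 pathway, had 62 and 53 reads. Its levels were 1.01 RPKM (0.777 to 1.30) and 0.824 RPKM (0.617 to 1.08), and the ratio was 0.813 (0.553 to 1.19). Of the 2562 genes with at least 100 and fewer than 250 reads, 22.1% had a ratio at least 1.2-fold below 1. SOCS2 (chromosome 12, 93569814 to 93583487, plus strand), which restrains growth hormone signalling, had 107 and 109 reads, at 0.706 and 0.684 RPKM, with a ratio of 0.969 (0.735 to 1.28). Its antisense neighbour SOCS2-AS1, which shares 277 exon bases with it, had 21 and 27 reads.

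The reads of the 4 feedback genes came to 250 for WT and 232 for S435D. Relative to library size the ratio of these sums was 0.882, with a counting interval of 0.735 to 1.06. All 4 ratios were below 1, where 57.4% of the 28326 genes with any read were lower in the S435D library. That interval includes 1, so the reads of this group do not tell its ratio from 1 at this depth.

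**Figure D2:**
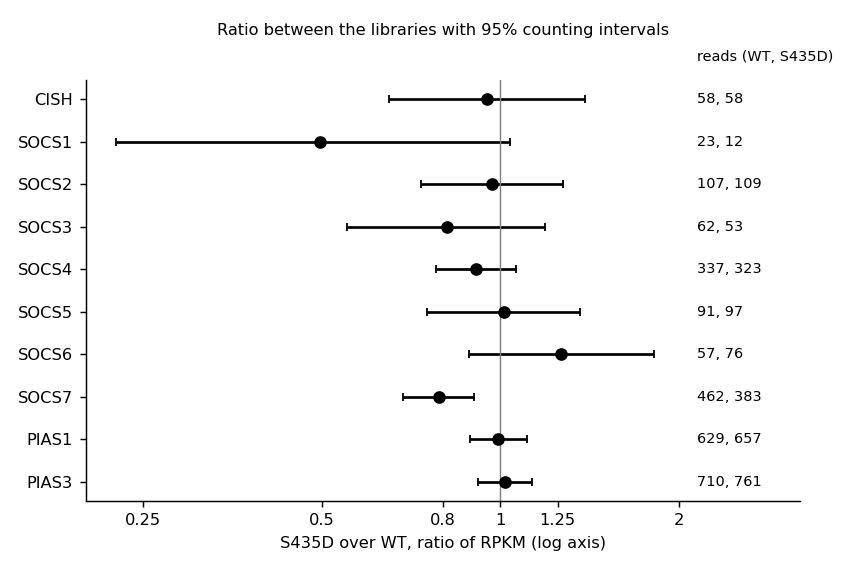
Ratio of RPKM in the S435D library to that in the WT library (log axis) for each of the 10 genes, with 95% counting intervals as bars and the reads in each library at the right. The interval of SOCS7 (0.687 to 0.905) lies below 1, and those of the other 9 genes include 1.

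SOCS4 to SOCS7 have long amino-terminal regions and are tied less to cytokine feedback than to receptor tyrosine kinases and insulin signalling. SOCS7 (chromosome 17, 38352228 to 38405593, plus strand), which binds the adaptor NCK and insulin receptor substrates, had 462 reads with WT and 383 reads with S435D. Its level was lower in the S435D library, 1.89 against 2.40 RPKM, and the level intervals of the libraries did not overlap. The ratio was 0.788 (0.687 to 0.905), and SOCS7 was the single member of the 10 whose counting interval excludes 1. In bulk RNA, fewer cells that express a gene and less of its RNA per cell cannot be told apart. Of the 17873 genes with at least 20 reads, 12.5% had such an interval below 1 and 7.32% above 1. Among the 2740 genes with at least 500 and fewer than 1000 reads, 7.12% were at least 1.2-fold lower by the ratio of RPKM, 5% were below a ratio of 0.816, and the middle 50% lay between 0.914 and 1.05. No other gene of the table shared exon bases with SOCS7, nor with SOCS1, SOCS3, SOCS4, SOCS5 or SOCS6.

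SOCS4 (chromosome 14, 55027230 to 55049488, plus strand), a regulator of EGF receptor turnover, had 337 and 323 reads, with a ratio of 0.911 (0.780 to 1.06). Its relative SOCS5 (chromosome 2, 46698952 to 46763129, plus strand) had 91 and 97 reads, at 0.808 and 0.819 RPKM, with a ratio of 1.01 (0.754 to 1.36). SOCS5 has processed copies in the genome, of which SOCS5P4 had 3 reads in each library. SOCS6 (chromosome 18, 70288901 to 70330200, plus strand), the closest relative of SOCS7, had a ratio above 1. It had 57 reads with WT and 76 reads with S435D, or 0.426 and 0.540 RPKM, with a ratio of 1.27 and an interval of 0.888 to 1.82 that includes 1. Of the 2562 genes of like read number, 14.2% were at least 1.2-fold higher. The reads of SOCS4 to SOCS7 together were 947 and 879, a ratio of 0.883 (0.804 to 0.969) to which SOCS7 contributed 462 and 383 reads.

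The PIAS genes had ratios close to 1. PIAS3 (chromosome 1, 145848522 to 145859836, minus strand), the inhibitor of STAT3, had 710 reads with WT and 761 reads with S435D, a ratio of 1.02 (0.919 to 1.13). PIAS1 (chromosome 15, 68054179 to 68198603, plus strand), a SUMO ligase of the same family, had 629 and 657 reads, a ratio of 0.993 (0.889 to 1.11). These are the members with the most reads and the narrowest intervals. PIAS1 shares 30.3% of its length with exons of CALML4 on the other strand, which had 353 and 321 reads, and 27.2% with the clone-named gene RP11-315D16.2, which had 556 and 534. PIAS3 shares 8.99% with NUDT17, which had 205 and 192. The rest of the family, read beside them, was similar. PIAS4 was at 9.91 and 9.84 RPKM (ratio 0.993, 0.901 to 1.10), the highest of the 4 PIAS genes, and PIAS2 at 0.385 and 0.376 RPKM, the lowest. The 4 PIAS genes together held 2298 and 2417 reads, a ratio with an interval of 0.944 to 1.06.

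**Figure D3:**
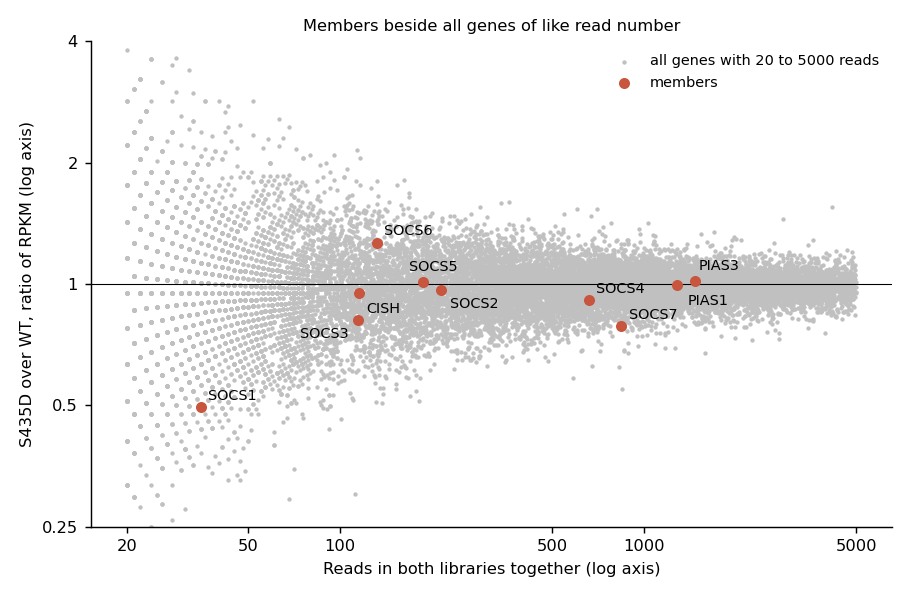
Ratio of RPKM between the libraries (log axis, shown from 0.25 to 4) against the reads in both libraries together (log axis) for all genes with 20 to 5000 reads (grey) and the 10 members (red). SOCS1, with 35 reads in all, lies where the grey cloud is wide, and SOCS7, with 845 reads, lies at its lower edge.

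To compare the group with all genes, 0.5 RPKM was added to each value and the log2 of the S435D value over the WT value was taken, a scale that understates differences of low genes, for genes averaging 1 RPKM or more. Only 4 of the 10 members passed that level. Of these, 3 were lower in the S435D library and 1 higher, where 57.1% of all 13290 genes at that level were lower, and the median log2 ratio was -0.058 against -0.024 for all genes. One member, SOCS7 with a log2 ratio of -0.28, was at least 1.2-fold lower, where 7.92% of all genes were, and 0 were at least 1.2-fold higher, where 4.43% were. Among protein-coding genes alone 3.3% were at least 1.2-fold lower. At a 1.5-fold rule 0 members were lower or higher, where 1.59% and 1.08% of all genes were, and at a 2-fold rule again 0, where 0.504% and 0.339% were. SOCS7 lay close to the 1.2-fold bound, and with the median of all genes set to 0 or with scaling by a trimmed mean it was no longer past it, at -0.25 in both cases, nor was it with a pseudocount of 1 RPKM, at -0.23. Over all 10 members 7 were lower and 3 higher, with a median of -0.031, where 56.9% of all genes with at least 20 reads were lower, with a median of -0.024.

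Partners, targets and other inhibitors of the pathway were read from lists drawn up by function, with earlier results of these data known. Most parts of the ubiquitin ligase that SOCS proteins recruit stood above the SOCS genes in level. Elongin B (TCEB2) was at 101 and 105 RPKM and elongin C (TCEB1) at 7.31 and 7.17, and the scaffold CUL5 was at 2.80 and 2.79 RPKM (ratio 0.998). TCEB2 shares 16.8% of its length with SRRM2. Of the 8 ligase genes, 1 was higher and 7 lower, 0 of them by 1.2-fold, with a median log2 ratio of -0.082. Of all genes at 1 RPKM or more, 57.1% were lower, with a median of -0.024. At least 1.2-fold lower were 7.92% of all genes, and 4.43% were at least 1.2-fold higher. RNF7, the RING subunit that pairs with CUL5, was at 5.73 and 4.82 RPKM (ratio 0.842, 0.728 to 0.974), and ARIH2, a ligase that works with neddylated CUL5, was at 17.6 and 15.7 (0.894, 0.850 to 0.941). Other proteins with a SOCS box were split, with 8 higher and 7 lower among the 15 that reached 1 RPKM, beside the same 57.1% lower of all genes. WSB1 was at 3.49 and 2.88 RPKM (ratio 0.824, 0.736 to 0.922) and ASB1 at 2.40 and 1.96 (0.819, 0.707 to 0.949), while ASB14 was at 6.40 and 7.52 (1.17, 1.04 to 1.33) and shares 168 exon bases with APPL1.

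Among the JAK kinases and STAT factors, the direct targets of these inhibitors, 7 of 11 reached 1 RPKM, 4 higher and 3 lower and 0 past 1.2-fold, with a median log2 ratio of 0.026. Of all genes at that level 57.1% were lower, with a median of -0.024. By at least 1.2-fold, 7.92% of all genes were lower and 4.43% higher. Below that level, JAK2 had 25 and 55 reads (ratio 2.09, 1.28 to 3.50) and STAT5A had 3 and 14 (4.44, 1.24 to 24.1). Also below it, JAK3 had 39 and 40 reads (0.975, 0.612 to 1.557) and STAT4 had 54 and 68 (1.197, 0.825 to 1.745). The intervals of JAK3 and STAT4 include 1. Of all genes with at least 20 reads, 7.32% had an interval above 1, and STAT5A had too few reads to be among those genes. STAT3, the target of PIAS3, was at 5.01 and 4.57 RPKM (ratio 0.912, 0.834 to 0.998), below PIAS3 in both libraries. STAT5B, which activates CISH, was at 5.49 and 5.18 RPKM (0.944, 0.854 to 1.04). Of the 10 cytokine receptors at 1 RPKM or more, 9 were lower, where 57.1% of all genes were, with a median log2 ratio of -0.091. IL10RB, a shared chain of the interleukin-10 and interferon-lambda receptors, was at 2.65 and 1.98 RPKM (0.747, 0.621 to 0.897) and the single receptor of these 10 past 1.2-fold, though 12.5% of its length is shared with the clone-named gene AP000295.9. Of 23 cytokine genes in the table, 10 had no read in either library, IL6 among them, and 2 reached 1 RPKM. CTF1, a ligand of gp130 receptors, was one of these at 30 and 47 reads, or 0.806 and 1.201 RPKM (ratio 1.49, 0.923 to 2.44), and with a log2 ratio of 0.38 it was at least 1.2-fold higher, where 4.43% of all genes were. The other, THPO, was at 2.24 and 1.95 RPKM (ratio 0.872). LIF, another ligand of gp130 receptors and below that level, had 17 and 41 reads (ratio 2.29, 1.27 to 4.31), an interval above 1 as in 7.32% of all genes with at least 20 reads. Other cytokine genes below that level had intervals that include 1. IL7 had 72 and 68 reads (0.898, 0.635 to 1.27), TSLP 26 and 33 (1.21, 0.700 to 2.10) and IL11 13 and 14 (1.02, 0.446 to 2.37).

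Of the further SOCS targets, NCK1, an adaptor bound by SOCS7, was at 4.25 and 3.38 RPKM (ratio 0.795, 0.679 to 0.930), and the related NCK2 was at 10.2 and 9.71 (0.951, 0.854 to 1.06). SORBS3, another partner of SOCS7, was at 6.35 and 7.06 RPKM (1.11, 1.01 to 1.22), with 9.55% of its length shared with a clone-named gene. The 7 genes of that list at 1 RPKM or more were 3 higher and 4 lower, with NCK1 the only one past 1.2-fold. Of all 13290 genes at that level, 57.1% were lower, 7.92% were at least 1.2-fold lower and 4.43% at least 1.2-fold higher. Among phosphatases that act on JAK and STAT proteins, PTPN1 was at 16.2 and 16.8 RPKM and PTPN11 at 13.4 and 13.3, PTPN6 was at 1.74 and 1.78, and PTPRC and PTPRT had 0 reads, whereas the adaptor SH2B3 was at 2.11 and 1.75 (0.830, 0.694 to 0.993). The SUMO machinery with which PIAS proteins work was abundant. Of its 16 genes at 1 RPKM or more, 8 were higher and 8 lower, where 57.1% of all genes were lower. Past 1.2-fold were 0 of the 16, where 7.92% of all genes were lower and 4.43% higher by that much. SUMO2 was at 108 and 106 RPKM, SAE1, of the SUMO-activating enzyme, at 102 and 101, and its partner UBA2 at 51.1 and 46.4 (0.909, 0.875 to 0.944). Of these 16 genes, 2 had a counting interval above 1 and 3, UBA2 among them, had one below 1. NSMCE2 was at 12.4 and 14.1 RPKM (1.136, 1.035 to 1.247) and ZMIZ2 at 3.72 and 3.27 (0.881, 0.784 to 0.989).

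**Figure D4:**
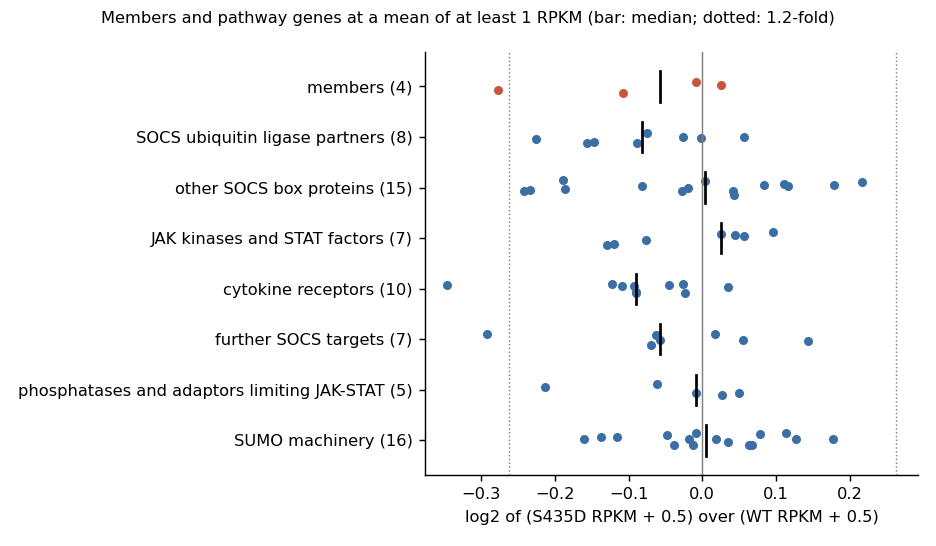
Log2 ratio of S435D to WT, each with 0.5 RPKM added, for the members (red) and the genes of 7 pathway lists (blue) with a mean of at least 1 RPKM, a point per gene, with the median as a black bar and 1.2-fold as dotted lines. SOCS7, IL10RB and NCK1 are the points past the lower dotted line, and no point of these lists is past the upper one. The cytokine genes, of which 2 reached that level, are not drawn, and CTF1 at 0.38 would lie past the upper line.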

How the data were processed

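RPKM values for 43337 genes were deposited by the authors in a single table for both libraries, with exon positions and gene length, per the file headers. The aligner, counting program, strand setting and build are, in the sources used here, not given. In both libraries 100% of values above 0 were whole reads within 0.01. Of the 10 members, 8 had the start and end of GENCODE release 29 (GRCh38), and the other 2, SOCS1 and SOCS5, differ from it at 1 end.

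Ratios of RPKM carry exact conditional binomial 95% intervals and levels exact Poisson ones, from recovered reads. Both cover counting error only. A count of 0 was taken to allow 3 reads. The log2 ratio used a pseudocount of 0.5 RPKM and was taken over genes averaging 1 RPKM or more. A 1.2-fold rule described size. With 1 library per construct no test was possible. Procedures were tested on simulated data.

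Members, lists and rules were chosen with earlier results of these data known. Named list genes were the 4 with the largest absolute log2 ratio, the 2 most abundant and any JAK or STAT gene. Named besides, with their values known, were the line's markers, TCEB1, CUL5, PTPRC, PTPRT, IL6, LIF, IL7, IL11, TSLP and genes overlapping members. Both elongin genes appear under their older symbols. Tables were handled with pandas 2.3.3 and numpy 2.4.6 in Python 3.11.15, intervals came from SciPy 1.17.1, and plots from matplotlib 3.10.9.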

Additional observations from a re-analysis of the deposited data

How the results depend on the processing

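No paired analysis was possible because each construct had 1 library, and for the same reason no library could be left out. The median log2 ratio of members at 1 RPKM or more stayed below 0 at pseudocounts of 0.1 and 1 RPKM and under every scaling tried. At those pseudocounts it was -0.068 and -0.048, where the median of all genes was -0.026 and -0.022. With centring, which sets all genes to 0, it was -0.034, and with a trimmed mean -0.032 against 0.0047. With both libraries rescaled to the same RPKM total it was -0.089, close to the -0.087 of all genes. The members' median was 0.026 at a mean of at least 5 RPKM, where PIAS3 was the single member left, 0 members were lower and 0 were past 1.2-fold lower. Of all genes at that level, 56.3% were lower and 3.69% past 1.2-fold lower. With no filter, and with at least 20 reads, all 10 members entered, 7 were lower and 2 (SOCS1 and SOCS7) were past 1.2-fold lower, where 37.5% and 56.9% of all genes were lower and 7.2% and 7.75% past 1.2-fold lower. Rescaling both libraries to the same RPKM total also let all 10 in, with 9 lower and 3 past 1.2-fold, where 70.5% of all genes were lower and 16.7% past 1.2-fold lower. By length of the longest coding transcript, an alternative added after seeing the data, 6 members entered, 5 were lower and 1 was past 1.2-fold lower. Of all genes in that setting, 57.1% were lower and 8.49% past 1.2-fold lower. The count of members lower past the rule was 0 with a pseudocount of 1 RPKM, with centring, with a trimmed mean and with 1.5-fold and 2-fold rules. In the same order, 6.07%, 6.71%, 6.54%, 1.59% and 0.504% of all genes were. For single members, each of 60 values under these settings lay within its counting interval, taken on the log2 scale with 0.5 RPKM added. The settings use the same reads, so this shows only that the shifts were small beside the counting error. The sign of PIAS1 turned with centring and with a trimmed mean, and those of SOCS5 and PIAS3 with rescaling to an equal total. Depth limits the 6 members under 1 RPKM, with 35 to 216 reads each.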
